A study of Homo sapiens with 4 samples.

Results

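Nonsense-mediated decay (NMD) factors were compared between the PC9 line and PC9OR, a line derived from it that resists osimertinib. The 9 members, *UPF1*, *UPF2*, *UPF3A*, *UPF3B*, *SMG1*, *SMG5*, *SMG6*, *SMG8* and *SMG9*, were taken by name from the 16813 genes listed in at least 1 library, and all 9 passed the filter on low counts. PC9 is a lung adenocarcinoma line with an activating *EGFR* mutation, and osimertinib is an inhibitor of mutant EGFR. The libraries were made from 2 replicates of PC9 cells (labelled as control) and 2 replicates of PC9OR cells (labelled as osimertinib resistant), 4 libraries in all. Both lines were labelled wild type in genotype and were grown in the same serum-supplemented medium, and the labels name no drug given at harvest. PC9OR is a single resistant line, so the effect of resistance and other ways in which the 2 cultures diverged cannot be told apart. The question put to these genes was whether the machinery of NMD differed between the lines, because the study ties NMD to *EGFL7* transcripts. The study drew that link from PC9 cells treated with osimertinib, where of the NMD proteins RENT1, RENT2 and RENT3 it reported only RENT3 as lower. The comparison here is another one, of RNA between the lines.

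NMD degrades mRNAs whose translation stops early. UPF1, an RNA helicase, gathers on such mRNAs at a terminating ribosome, and UPF2 and a UPF3 protein link it to exon junction complexes left downstream by splicing. The kinase SMG1, held in check by SMG8 and SMG9, phosphorylates UPF1. Phosphorylated UPF1 then recruits SMG6, which cuts the mRNA, or SMG5, which draws in decapping and deadenylation. The pathway also acts on its own mRNAs: transcripts of *UPF1*, *UPF2*, *UPF3B*, *SMG1*, *SMG5* and *SMG6* are known to be held down by NMD and to rise when it is impaired. *UPF3A* and *UPF3B* are paralogs, and UPF3A protein is known to be unstable where UPF3B occupies UPF2.

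*UPF3B* was the only member called lower both without and with an allowance for transcript length alone. With that allowance *SMG1* kept its direction (log2 fold change -0.27) but was not called. *UPF3A* passed neither test. The paralogs *UPF3B* and *UPF3A* are therefore shown first. *UPF3A* lies on chr13:115047076-115071292 of GRCh37, on the forward strand, and *UPF3B* on chrX:118967985-118986961, on the reverse strand. Both code for closely related proteins, and their coding exons 4 have the same length of 99 bases. Exon 4 of *UPF3A* (chr13:115051777-115051875) and exon 4 of *UPF3B* (chrX:118979161-118979259, reverse strand) are given here from the GRCh37 genome, with capitals marking bases identical between the paralogs, because a known short form of *UPF3A* lacks this exon.
UPF3A exon 4: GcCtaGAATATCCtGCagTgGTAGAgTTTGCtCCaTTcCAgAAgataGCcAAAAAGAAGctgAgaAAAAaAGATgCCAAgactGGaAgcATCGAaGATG
UPF3B exon 4: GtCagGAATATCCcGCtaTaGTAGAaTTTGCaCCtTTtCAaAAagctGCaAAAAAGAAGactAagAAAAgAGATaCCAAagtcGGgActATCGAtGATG
In this exon 67 of the 99 bases were identical (67.7%). Over the 6 pairs of coding exons of equal length, set side by side without gaps, 451 of 880 bases were identical, and the longest run shared by both transcripts was 16 bases. No run of 100 bases, the read length, was therefore shared exactly by the paralogs.

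The regions upstream of the paralogs also differ in sequence. The 250 bases before the first annotated start of each gene are given from RefSeq (GRCh38.p14), with capitals marking matches to 3 motifs on either strand. The GC box was searched as GGGCGG. The ETS motif, named for a family of transcription factors, was searched as CCGGAAG. The motif CCAAT was searched by its own letters. The stretches lie at chr13:114281351-114281600, forward strand, for *UPF3A* and chrX:119852964-119853213, reverse strand, for *UPF3B*.
UPF3A upstream: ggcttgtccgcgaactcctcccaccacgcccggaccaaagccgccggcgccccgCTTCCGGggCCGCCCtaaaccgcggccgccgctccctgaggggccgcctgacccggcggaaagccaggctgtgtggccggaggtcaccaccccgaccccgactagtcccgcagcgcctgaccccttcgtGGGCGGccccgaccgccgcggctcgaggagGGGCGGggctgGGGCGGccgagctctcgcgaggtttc
UPF3B upstream: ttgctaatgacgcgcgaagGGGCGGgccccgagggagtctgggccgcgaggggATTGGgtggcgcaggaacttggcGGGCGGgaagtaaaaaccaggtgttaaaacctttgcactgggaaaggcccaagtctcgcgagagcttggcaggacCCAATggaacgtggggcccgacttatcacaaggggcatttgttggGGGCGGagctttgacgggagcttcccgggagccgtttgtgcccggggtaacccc
The *UPF3A* stretch was 76.8% G and C with 34 CpG dinucleotides, and it held 4 GC boxes and 1 ETS motif. The *UPF3B* stretch was 62.8% G and C with 19 CpG dinucleotides, and it held 3 GC boxes and 2 CCAAT motifs. Of 35116 such stretches in the reference table, 42.6% held a GC box, 32% a CCAAT motif and 8.52% an ETS motif. These matches describe letters only, and no binding was measured.

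The expected counts, an estimated number of reads per gene without normalization, summed to between 23201307 and 32203998 per library, and between 14753 and 15138 genes were listed. Replicates of PC9 differed more than those of PC9OR cells (biological coefficient of variation 0.241 and 0.104). Part of that spread moved with transcript length. Over the genes tested, which share their libraries and are no replicates, length had a rank correlation of -0.40 with the log2 difference between PC9 replicates 2 and 1, of -0.01 between the PC9OR replicates and of -0.34 with the fold change between the lines. The members are therefore given without and with offsets for transcript length (smooth curves that take out the trend of each library with length), and for the other genes the offsets are named where they change a call or a sign. The 6 epithelial markers were all present, with summed values of 2580 to 2990 FPKM in PC9 and 5510 to 5720 in PC9OR cells. The lung markers *NKX2-1*, *NAPSA*, *SFTPB* and *SFTPC* reached at most 0.21 FPKM in sum, and 2 of the 4 were at 0 in every library. Markers of blood, stromal, endothelial and liver cells summed to 4.25 to 6.61 FPKM in PC9 and 0.94 to 1.00 in PC9OR cells, with 3 of 10 at 0 in every library. Their part in the results was not tested.

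**Figure D1:**
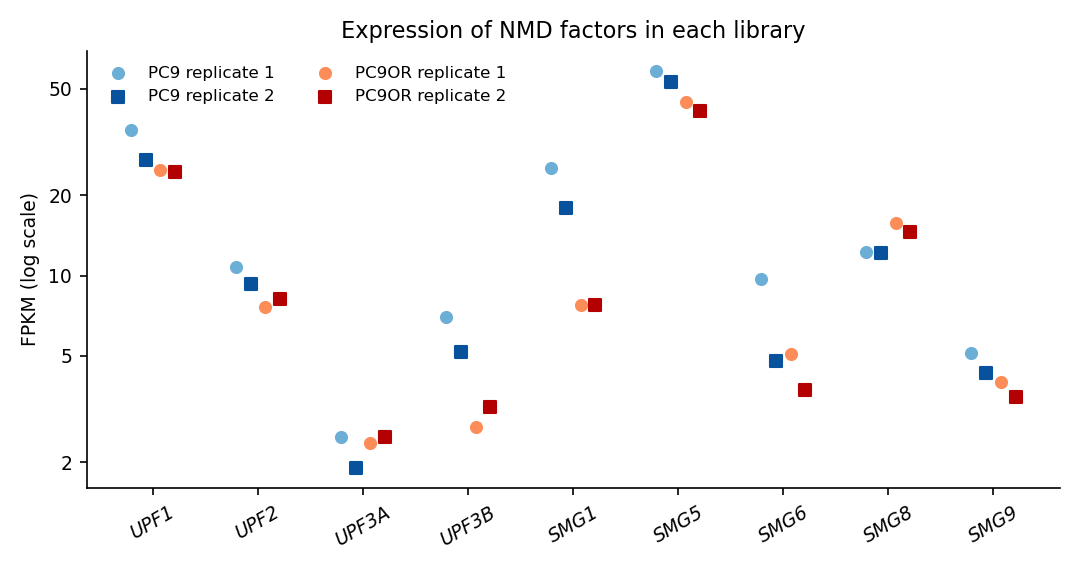
FPKM (log scale) of the 9 NMD factors in each of the 4 libraries, with circles for replicate 1 and squares for replicate 2. *SMG5* was highest and *UPF3A* lowest in every library, and *UPF3B* fell from 7.01 and 5.15 in PC9 to 2.71 and 3.21 in PC9OR cells.

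On the FPKM scale (fragments scaled by transcript length and library size) the members spanned a wide range. FPKM does not take out the trend of each library with length, so the orders below carry it. In PC9 cells the order of levels was *SMG5*, *UPF1*, *SMG1*, *SMG8*, *UPF2*, *SMG6*, *UPF3B*, *SMG9* and *UPF3A*. The range of *SMG6* overlapped there with those of *UPF2*, *UPF3B* and *SMG9*. In PC9OR cells the order was *SMG5*, *UPF1*, *SMG8*, *UPF2*, *SMG1*, *SMG6*, *SMG9*, *UPF3B* and *UPF3A*, with overlap between *UPF2* and *SMG1* and between *SMG6* and *SMG9*. *SMG1* moved from the third place to the fifth and *UPF3B* from the seventh to the eighth, while *SMG5* and *UPF1* led in both lines. The move of *SMG1* carries its trend in length (log2 fold change -1.44 without and -0.27 with length offsets).

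Of the 9 members, 2 were lower in PC9OR cells (*UPF3B* and *SMG1*) and 0 were higher at an adjusted p under 0.05 (quasi-likelihood test of edgeR, adjusted over 13148 genes by the method of Benjamini and Hochberg). Among all genes tested the same calls were made for 20.8% as lower and 15.6% as higher in PC9OR cells. At an unadjusted p under 0.05, 3 members were lower and 1 was higher, beside 26.7% and 23.9% of all genes. DESeq2's Wald test called 3 lower and 0 higher, beside 23% and 18.6% of all genes. The median log2 fold change of the members was -0.30, beside 0.01 over all genes tested. With offsets for transcript length the members' median was 0.02, beside 0.07 over all genes. *UPF3B* was then the 1 member called lower and *SMG8* the 1 called higher, where 18.6% and 20.1% of all genes were called lower and higher. The members are long, with a median of 5214 bases beside 2989 for all genes tested. Both PC9OR libraries lay below both PC9 libraries for 6 members and above them for 1, which among all genes tested was the case for 38.2% and 39.6%. At the study's threshold of more than 2-fold and an adjusted p under 0.001, the edgeR test called 0 of the 13148 genes (0%). By the same test 2685 passed 2-fold at an unadjusted p under 0.05, and DESeq2's Wald test called 1735 at the study's threshold. The study applied its threshold with another test, DEGseq, and reported genes upregulated in PC9OR cells. The 0 therefore says nothing about that list.

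**Figure D2:**
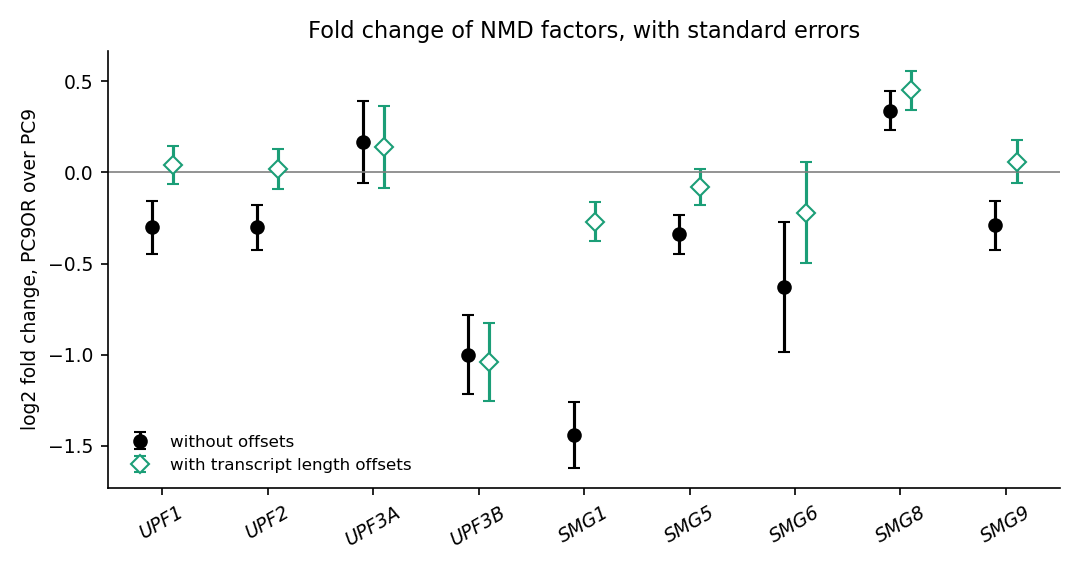
Log2 fold change of PC9OR over PC9 cells for the 9 NMD factors, with standard errors from edgeR, without offsets (filled circles) and with offsets for transcript length (open diamonds). *UPF3B* stayed near -1 (-1.0 and -1.04), whereas *SMG1* moved from -1.44 to -0.27.

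*UPF3B*, an adaptor that contacts the exon junction complex, had 523.43 and 483.23 expected counts in PC9 cells and 282.80 and 341.09 in PC9OR cells. Scaled to the library size after TMM normalization (CPM), these were 22.3 and 16.8 in PC9 and 8.83 and 10.7 in PC9OR cells. Both PC9OR libraries were below both PC9 libraries. The mean fell from 19.5 ± 3.93 to 9.75 ± 1.29 CPM (SD, n = 2), a log2 fold change of -1.0 (SE 0.216, adjusted p = 0.0244), or 2.0-fold lower. In bulk RNA, fewer cells with a transcript and less of it per cell cannot be told apart. With length offsets the log2 fold change was -1.04 (SE 0.213, adjusted p = 0.0157), since at about 2372 bases the curve for *UPF3B* differed between the lines by only 0.04 on the log2 scale. The call was lost without PC9OR replicate 1 (-0.87, adjusted p = 0.124) or PC9OR replicate 2 (-1.14, adjusted p = 0.0588). In those fits, which leave PC9OR with 1 library and the larger spread of PC9, the calls among all genes fell from 2056 higher and 2734 lower to 525 and 1177 or to 527 and 1191.

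*UPF3A*, which can take the place of *UPF3B* on *UPF2*, was the least abundant member. Its expected counts were 187.05 and 179.95 in PC9 and 247.07 and 264.95 in PC9OR cells, or 7.98 and 6.24 against 7.71 and 8.29 CPM. The groups overlapped, with a log2 fold change of 0.17 (SE 0.225, adjusted p = 0.572) and of 0.14 with length offsets (adjusted p = 0.654). Without PC9 replicate 2 the value was -0.01. Of the windows of 100 bases along its transcript, 25.89% also occur in the annotated copies *UPF3AP1* and *UPF3AP2*, which are not listed in the files, so reads from these copies cannot be told apart from *UPF3A* over that share.

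**Figure D3:**
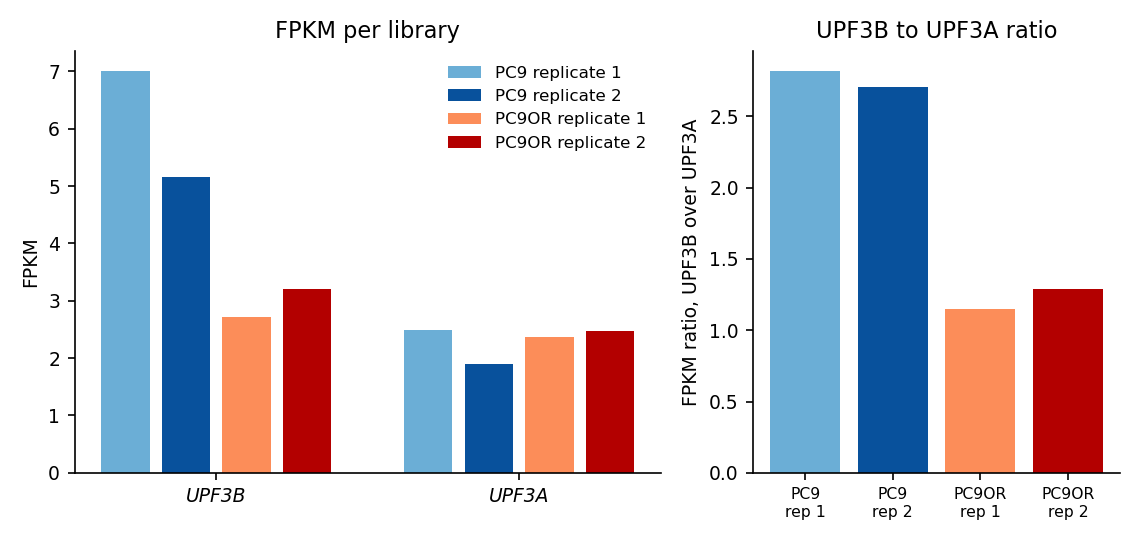
Left, FPKM of *UPF3B* and *UPF3A* in each of the 4 libraries. Right, the ratio of *UPF3B* over *UPF3A* in the same libraries, 2.82 and 2.71 in PC9 and 1.15 and 1.29 in PC9OR cells.

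The balance of the paralogs was measured within each library, where library size cancels. *UPF3B* over *UPF3A* was 2.82 and 2.71 by FPKM in PC9 cells, and 1.15 and 1.29 in PC9OR cells. The replicates lay close together in both lines and the groups did not overlap. The mean log2 ratio went from 1.47 ± 0.039 to 0.29 ± 0.122 (SD, n = 2), a difference of -1.18, or a 2.27-fold smaller ratio. A two-sided exact permutation test gave p = 0.333, the smallest that 2 against 2 libraries allow. The difference was -1.17 from expected counts and -1.18 from length-offset CPM. By FPKM, *UPF3B* remained the more abundant paralog in all 4 libraries.

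The deposited transcript length, weighted by isoform use, also differed for *UPF3A*. It was 2387.00 bases in both PC9 libraries, and 2379.60 and 2381.17 in the PC9OR libraries. If the RefSeq transcripts of *UPF3A*, of which the files hold 2, differ by exon 4 alone, these lengths correspond to 0% of the isoform mixture without the exon in PC9, and to 7.47% and 5.89% in PC9OR cells. The share rests on the authors' assignment of 179.95 to 264.95 expected counts per library and was not tested. *UPF3B* lengths stayed between 2369.45 and 2373.98 bases in the 4 libraries.

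The genes whose pattern over the 4 libraries was most like that of *UPF3B*, among 3262 of similar CPM, were *GTSE1* (a cell cycle protein, distance 0.0348 in centred log2 CPM) and *PGAP1* (an enzyme of lipid anchor maturation, distance 0.0734). For *UPF3A*, among 2274 genes, they were *TRIM9* (0.0596), *ZNF564* (0.0635) and *ZBTB37* (0.0642). With 4 libraries such a likeness is a description only. Of the 20 tested genes nearest to *UPF3B* on the X chromosome, 1 had a lower log2 fold change and 19 a higher one, and their median was 0.18. *RPL39*, which borders *UPF3B* on one side, had a log2 fold change of 0.91 and *RNF113A*, on the other, 0.44. The 11 tested genes near *UPF3A*, at the end of chromosome 13, had a median of 0.45 and ranged from -2.25 to 2.42.

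*UPF1*, the helicase at the core of NMD (chr19:18942768-18979039), had 261 and 206 CPM in PC9 and 190 and 190 CPM in PC9OR cells. *UPF2*, its bridge to the UPF3 proteins (chr10:11962021-12085169, reverse strand), had 77.6 and 68.7 CPM against 56.7 and 61.8 CPM. PC9OR libraries were below PC9 libraries for both, but neither passed the test. The log2 fold change of *UPF1* was -0.30 (SE 0.145, adjusted p = 0.157) and that of *UPF2* -0.30 (SE 0.124, adjusted p = 0.110). With length offsets they were 0.04 (adjusted p = 0.765) and 0.02 (adjusted p = 0.906). With a library left out the log2 fold change ranged from -0.47 to -0.13 for *UPF1* and from -0.41 to -0.22 for *UPF2*. The lower ends were without PC9 replicate 2. Without a PC9 library the spread rests on the PC9OR replicates, which differed less, so calls added by such fits are not listed. The FPKM ratio of *UPF1* to *UPF2* was 3.28 and 2.93 in PC9 and 3.26 and 3.0 in PC9OR cells, so their proportion overlapped between the lines.

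*SMG1*, the kinase that phosphorylates *UPF1*, lies on chr16:18816182-18937730, reverse strand. It had 573 and 414 CPM in PC9 and 181 and 184 CPM in PC9OR cells. The PC9OR values nearly coincided, and both were below the lower PC9 value. The mean fell from 494 ± 112 to 182 ± 1.98 CPM (SD, n = 2), a log2 fold change of -1.44 (SE 0.182, adjusted p = 0.00841), or 2.71-fold lower. With length offsets it was -0.27 (SE 0.108, adjusted p = 0.0941) and the call was lost. With offsets for length and GC content it was -0.33 and just passed (adjusted p = 0.0493). At 16065 bases, 5.37 times the median, *SMG1* sits at the far end of the length scale, where 31 of the genes tested are as long, and the curves alone differed there by -1.16 on the log2 scale. How much of its difference belongs to the trend with length therefore rests on a small number of long genes. In addition, 11.04% of its windows of 100 bases occur in 19 other annotated genes, among them the partial copies *SMG1P1* to *SMG1P7*, none of which the files list.

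**Figure D4:**
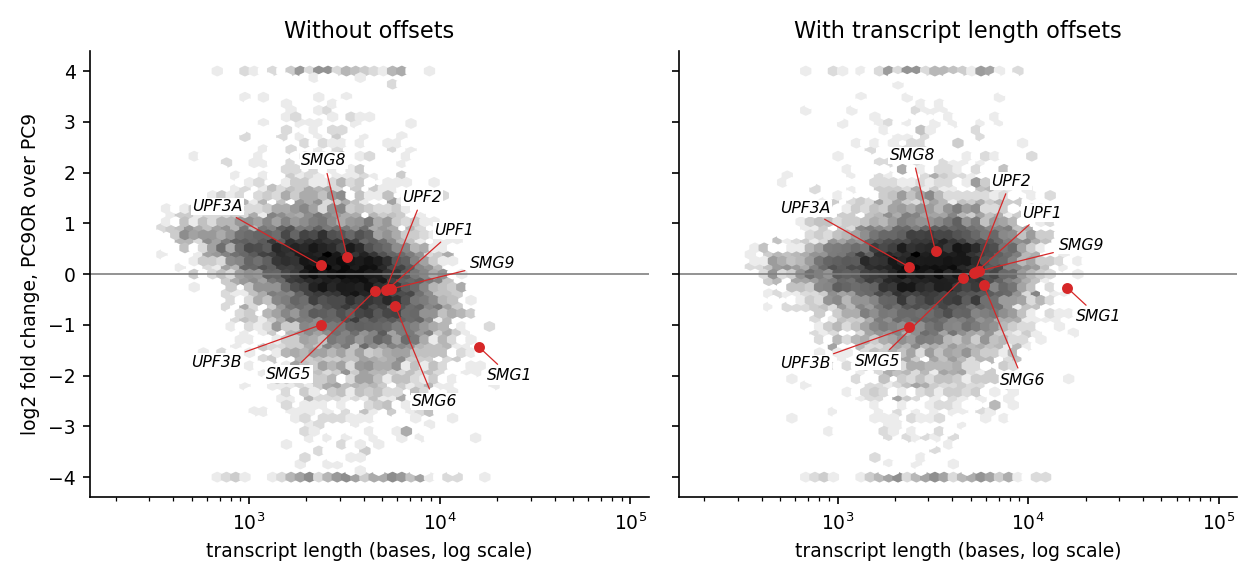
Log2 fold change of PC9OR over PC9 cells (values beyond 4 and -4 drawn there) against transcript length in bases (log scale) for all genes tested (grey, darker where denser), with the 9 NMD factors in red. Left, without offsets, the cloud slopes down with length and *SMG1*, at 16065 bases, lies on its far end; right, with length offsets, the slope is gone and *UPF3B* stays low.

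*SMG8* and *SMG9* form a complex with *SMG1* and restrain its kinase activity. *SMG8* (chr17:57286761-57292600) had 54.9 and 55.6 CPM in PC9 and 72.0 and 67.9 CPM in PC9OR cells. It was the 1 member with both PC9OR libraries above both PC9 libraries. Its log2 fold change was 0.34 (SE 0.108, adjusted p = 0.0610), and with length offsets 0.45 (SE 0.109, adjusted p = 0.0251), which passed the test. Without offsets the value was 0.32 with PC9 replicate 1 left out and 0.33 with PC9 replicate 2 left out. *SMG9* (chr19:44232135-44259114, reverse strand) had 39.4 and 34.2 CPM against 31.6 and 28.4 CPM. Its log2 fold change of -0.29 (adjusted p = 0.143) turned to 0.06 with length offsets (adjusted p = 0.696). Without PC9 replicate 2 and without offsets it was -0.41. *SMG8* and *SMG9* thus had different directions without offsets, and the FPKM ratio of *SMG8* to *SMG9* was 2.41 and 2.82 in PC9 and 3.95 and 4.14 in PC9OR cells.

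The kinase and its regulators also differed in proportion. By FPKM, *SMG8* over *SMG1* was 0.486 and 0.683 in PC9 and 2.03 and 1.89 in PC9OR cells. *SMG9* over *SMG1* was 0.202 and 0.243 against 0.516 and 0.455. Neither ratio overlapped between the lines, and both contain *SMG1* with its trend in length. A share of 10.47% of *SMG8* windows of 100 bases also occurs in another annotated gene without a symbol.

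*SMG5* and *SMG6* act after phosphorylated *UPF1*. *SMG5*, an adaptor for mRNA decay (chr1:156219015-156252616, reverse strand), had 369 and 341 CPM in PC9 and 289 and 273 CPM in PC9OR cells. Its groups did not overlap, and the log2 fold change was -0.34 (SE 0.109, adjusted p = 0.0643), or -0.08 with length offsets (adjusted p = 0.544). DESeq2's Wald test called it at an adjusted p of 0.0290 and limma-trend on log2(FPKM + 1) at 0.0492. The log2 fold change of *SMG5* was -0.29 without PC9 replicate 1 and -0.41 without PC9 replicate 2. *SMG6*, the endonuclease (chr17:1963133-2207079, reverse strand), had 78.0 and 38.9 CPM in PC9 and 43.2 and 32.1 CPM in PC9OR cells. Its PC9 replicates differed by 1.00 on the log2 scale, the groups overlapped, and the log2 fold change was -0.63 (SE 0.357, adjusted p = 0.211), or -0.22 with length offsets (adjusted p = 0.562). Without PC9 replicate 2 it was -1.06, and without PC9 replicate 1 it was -0.05. The isoform-weighted length of *SMG6* was 5773.23 and 5729.17 bases in PC9, and 5935.46 and 5934.68 bases in PC9OR cells, without overlap. That of *UPF2* did not overlap either, with 5215.02 and 5220.61 bases in PC9 and 5208.62 and 5211.14 in PC9OR cells. How often lengths separate in this way among all genes was not counted.

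The factors whose own mRNAs are NMD substrates were also counted as a list. Of the 6 (*UPF1*, *UPF2*, *UPF3B*, *SMG1*, *SMG5* and *SMG6*), 2 were lower in PC9OR cells (*UPF3B* and *SMG1*) and 0 were higher, where 20.8% and 15.6% of all genes were called. At an unadjusted p under 0.05, and by DESeq2's Wald test, 3 were lower and 0 higher, *SMG5* being added. Among all genes 26.7% were lower and 23.9% higher unadjusted, and 23% and 18.6% by DESeq2. The list's median log2 fold change was -0.48, beside 0.01 over all genes. With length offsets it was -0.15, beside 0.07 over all genes. Then 1 was lower and 0 higher, beside 18.6% and 20.1% of all genes. The same shares stand beside the 3 members outside that list, *UPF3A*, *SMG8* and *SMG9*. Of these 3, 0 were called without offsets, where 1 passed an unadjusted p under 0.05 and DESeq2's Wald test called 0. *SMG8* was higher with length offsets. The pathway represses these mRNAs after transcription, and total RNA does not separate synthesis from decay.

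**Figure D5:**
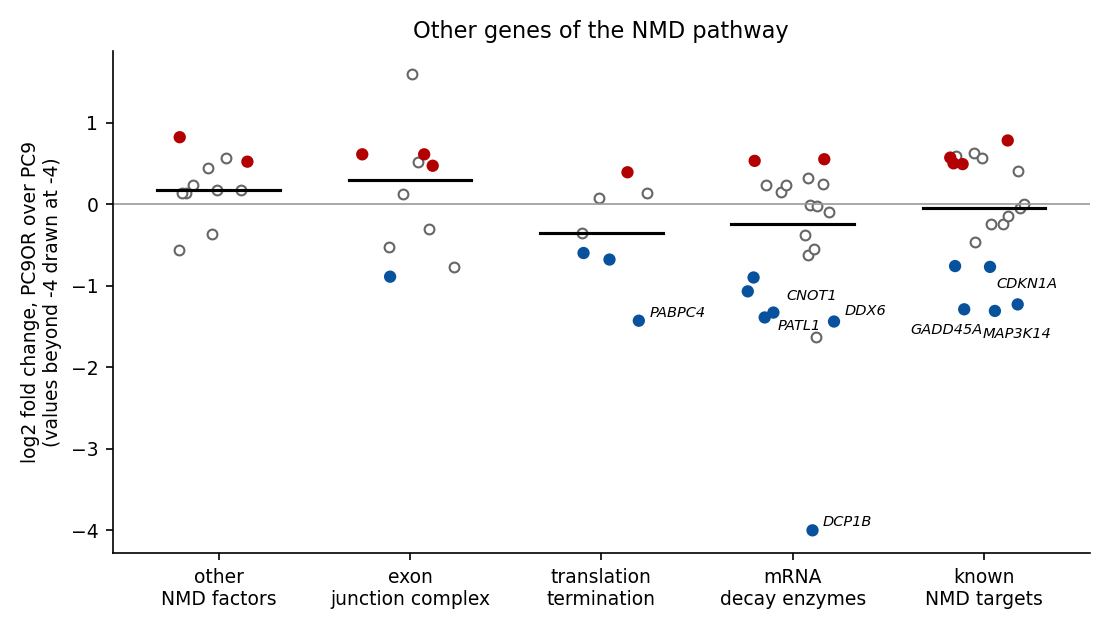
Log2 fold change of PC9OR over PC9 cells for the other genes of the pathway in 5 lists, with filled red and blue points for genes higher and lower at an adjusted p under 0.05, open points for the rest and a bar at each list's median. *DCP1B*, drawn at the axis end, was almost absent from PC9OR cells.

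Of 67 other tested genes of the pathway, 12 were higher and 15 were lower in PC9OR cells, with a median log2 fold change of 0.00. Among all genes tested, 15.6% were called higher and 20.8% lower, with a median of 0.01. With length offsets 15 of the 67 were higher and 16 lower, with a median of 0.13. Among all genes these shares were 20.1% and 18.6%, with a median of 0.07. The same shares stand beside each list below, and no list was tested as a set. Among the 11 other NMD factors, 2 were higher and 0 lower, with a median of 0.17. At an unadjusted p under 0.05, 3 were higher and 1 lower, beside 23.9% and 26.7% of all genes. DESeq2's Wald test also called 3 and 1, beside 18.6% and 23% of all genes. With length offsets 4 were higher, with a median of 0.42. *RUVBL2*, an ATPase that takes part in *SMG1* assembly, rose by 0.82 on the log2 scale (adjusted p = 0.0181). *PNRC2*, a decapping adaptor, rose by 0.52 (adjusted p = 0.0439). Both were also higher with length offsets.

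The exon junction complex, to which *UPF3B* binds, had 3 genes higher and 1 lower of 10, with a median of 0.30, and 2 and 2 with a median of 0.08 under length offsets. *RBM8A*, a core subunit, rose from 64.3 and 73.9 CPM to 94.5 and 97.3 CPM (log2 fold change 0.47, adjusted p = 0.0366). *SAP18* rose by 0.61 (adjusted p = 0.0490), and *PYM1*, which dismantles the complex, by 0.61 (adjusted p = 0.0244), a call lost with length offsets (0.28, adjusted p = 0.101). *PNN*, a splicing-linked component, fell by 0.89 (adjusted p = 0.0187). Among the remaining core subunits, *MAGOH* had a log2 fold change of 0.12 (adjusted p = 0.636), or -0.37 with length offsets, and *CASC3* of -0.77 (adjusted p = 0.10). *EIF4A3*, the helicase that anchors the complex, had 7.04 and 30.2 CPM in PC9 and 76.1 and 37.7 CPM in PC9OR cells. Its replicates differed by 2.10 and -1.01 on the log2 scale, and its log2 fold change of 1.60 (SE 0.712, adjusted p = 0.131) did not pass. The value was 3.0 without PC9 replicate 2 and 2.03 without PC9OR replicate 2. It was 0.91 without PC9 replicate 1 and 1.02 without PC9OR replicate 1.

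Of the 7 tested termination genes, 3 were lower and 1 was higher, with a median of -0.36. With length offsets 2 were lower and 0 higher, and the median was 0.15. At an unadjusted p under 0.05 with those offsets 0 were higher, beside 3578 of all 13148 genes tested. *PABPC4*, a poly(A)-binding protein, fell by 1.43 (adjusted p = 0.00813), *PABPC1* by 0.60 (adjusted p = 0.0255) and *EIF4G1* by 0.68 (adjusted p = 0.0340). *DDX19B* rose by 0.39 (adjusted p = 0.0445). The calls of *EIF4G1* and *DDX19B* were lost with length offsets. The release factors themselves did not pass, with 0.13 for *ETF1* (adjusted p = 0.427) and -0.36 for *GSPT1* (adjusted p = 0.0551), which was 0.15 with length offsets.

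Among the 20 genes of the mRNA decay enzymes that act after *UPF1*, 6 were lower and 2 higher, with a median of -0.24, and 6 and 5 with a median of 0.11 under length offsets. *DCP1B*, a decapping cofactor, had 53 and 51 counts in PC9 and 1 and 0 in PC9OR cells. Allowing for library totals, the PC9OR level was 0.783% of that in PC9 (exact 95% interval 0.0196% to 4.46%, counting error only). *DDX6*, a decapping activator, fell by 1.44 (adjusted p = 0.00533) and *PATL1*, a scaffold of decapping, fell by 1.39 (adjusted p = 0.0170). *CNOT1*, the scaffold of the main deadenylase, fell by 1.33 (adjusted p = 0.00959). All 4 stayed lower with length offsets. *XRN1*, the exonuclease that follows decapping, had a log2 fold change of -0.38 (adjusted p = 0.0685), or 0.23 with length offsets. *DCP2*, the decapping enzyme, had 0.15 (adjusted p = 0.318) and 0.90 with length offsets (adjusted p = 0.0128).

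Transcripts known as NMD targets moved in both directions. Of 19 tested, 4 were higher and 5 lower, with a median of -0.05, or 0.00 with length offsets. *MAP3K14*, a kinase of NF-kappaB signalling, fell by 1.31 (adjusted p = 0.0149). *GADD45A*, a stress-response gene, fell by 1.29 (adjusted p = 0.00780), from 119 and 145 CPM to 58.4 and 49.7 CPM. *CDKN1A*, the p21 cell cycle inhibitor, fell by 1.23 (adjusted p = 0.0166), and *SRSF3*, a splicing factor with an NMD-sensitive isoform, rose by 0.78 (adjusted p = 0.0356). Whole-gene counts do not separate NMD-sensitive isoforms from others. *EGFL7*, the transcript that the study links to NMD, had 14.5 and 18.5 CPM in PC9 and 39.7 and 39.8 CPM in PC9OR cells, a log2 fold change of 1.27 (adjusted p = 0.00842), or 0.99 with length offsets (adjusted p = 0.00387).

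With either PC9OR library left out, the calls of *RUVBL2*, *PNRC2*, *RBM8A*, *SAP18*, *PYM1*, *PNN*, *EIF4G1*, *PABPC1*, *DDX19B* and *SRSF3* were lost, with adjusted p values of 0.0638 to 0.389 (edgeR). *SMG1*, *PABPC4*, *DCP1B*, *DDX6*, *PATL1*, *CNOT1*, *MAP3K14*, *GADD45A*, *CDKN1A* and *EGFL7* kept their calls and directions with each of the 4 libraries left out. Without PC9 replicate 2 the log2 fold change was 0.22 for *ETF1*, -0.43 for *GSPT1*, -0.49 for *XRN1* and -1.06 for *CASC3*. That of *GSPT1* was -0.30 without PC9 replicate 1. That of *CASC3* was -1.14 without PC9OR replicate 1, -0.45 without PC9 replicate 1 and -0.47 without PC9OR replicate 2.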

How the data were processed

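Per the labels, total RNA of 4 libraries was extracted with TRIzol and prepared with a stranded kit. The submitters' processing notes name Bowtie2 2.2.5, RSEM 1.2.12 and GRCh37. The authors deposited for each gene an expected count (an estimated count, not normalized), an FPKM value and a transcript length in bases. Each file lists only genes with a count above 0, so an absent gene was given 0. Entrez identifiers were matched to symbols for 99.66% of genes.

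After rounding, expected counts were tested by the quasi-likelihood method of edgeR 4.0.16 under R 4.3.3 (TMM, filterByExpr), and a gene was called at a Benjamini-Hochberg adjusted p under 0.05 over 13148 genes. Standard errors were the log2 fold change divided by the square root of F. CPM values are counts scaled by the library size after TMM. Length offsets came from a smooth curve per library (mgcv 1.9.3). Alternatives were DESeq2 1.42.0 and limma 3.58.1 on log2(FPKM + 1) and log2(FPKM + 0.1), other scalings and filters, and a model on pooled replicates rebuilt after the study's DEGseq. On simulated libraries with a length trend, the test without offsets made 1304 false calls among 12982 genes and that with length offsets 4. They recovered 70% and 87% of 2-fold changes. The simulated trend was a straight line in log length set by hand, and the spread was the same in both lines. Length curves remove such a trend by construction, so this checks the method only. The origin of the trend in the data was not tested.

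The members and gene lists were chosen with earlier results of these data known. Named were all members, *EGFL7*, 9 further genes set by name, and up to 4 called genes with the largest change of each list. The replicates are labelled biological, with no separate origin stated, so p-values measure the spread between these libraries. The paper states no pairing of replicates, so the main fit used none. Same-numbered libraries deviated with a correlation of 0.064 over genes, which does not settle whether they were handled together. Intervals and the floor of 3 counts cover counting error only. Protein sequences were not analysed here, and the result for 1 withheld gene is not reported.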

Additional observations from a re-analysis of the deposited data

How the results depend on the processing

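*UPF3B* kept its direction under every alternative, and the ratio of *UPF3B* to *UPF3A* differed by -1.27 to -1.09 with each library left out. Members called lower numbered 2, with 1 under length offsets and under length offsets with the replicate block. They numbered 7 under the pooled-replicate model, which called 5459 of 13050 genes lower and 5594 higher. The main fit called 2734 of 13148 genes lower and 2056 higher. At more than 2-fold with an adjusted p under 0.001, 0 members were called, as were 0 of all genes. More members were called lower without PC9 replicate 1 or 2, and fewer without PC9OR replicate 1 or 2. The most were called without PC9 replicate 2, so the number called depends on the library left out. Calls among all genes rose and fell in the same fits, each of which leaves 1 library in a line. In these fits the log2 fold change of *UPF3B* ranged from -1.21 to -0.79 and that of *SMG1* from -1.67 to -1.19. Members called higher numbered 0, with 1 under length offsets, those with the replicate block, length and GC offsets and the pooled-replicate model. Among all 13148 genes the fits with offsets called 2645, 3362 and 2931 higher, in that order. For the other pathway genes, 12 higher and 15 lower became 20 higher under length offsets with the replicate block, and 0 and 0 at the stricter threshold. They ranged from 0 to 23 higher and from 8 to 26 lower with a library left out.

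The replicate block called 3 members lower, *SMG6* being added (-0.57, adjusted p = 0.0297), and 15 pathway genes higher and 21 lower. Among all 13148 genes it called 2593 higher and 2946 lower. It added calls for *EIF4A3* (1.8, adjusted p = 0.0295) and *CASC3* (-0.78, adjusted p = 0.00319), also with length offsets (1.61 and -0.56), and lost that of *DDX19B* (0.39, adjusted p = 0.066). With 2 replicates a line, the correlation of 0.064 does not settle whether the libraries are pairs.

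The sign turned, for genes called in neither fit, under length offsets without and with the block for *UPF1* (0.04 and 0.04), *UPF2* (0.02 and 0.02), *SMG9* (0.06 and 0.06), *MAGOH* (-0.37 and -0.37), *GSPT1* (0.15 and 0.15) and *XRN1* (0.23 and 0.23). It turned under length and GC offsets for *UPF1* (0.18), *SMG5* (0.10), *SMG6* (0.04) and *SMG9* (0.29), and with a library left out for *UPF3A* (-0.01 to 0.35) and *MAGOH* (-0.10 to 0.36). Length offsets take out the trend with length by construction. For the other changes the cause was not tested. Among the members depth limits *UPF3A* most, with about 180 reads in PC9.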
